A study of Mus musculus with 3 samples.

Results

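Ephrins and Eph receptors are described here across the cell types of the AGM (aorta-gonad-mesonephros region) of mouse embryos, the tissue around the dorsal aorta in which the first haematopoietic stem cells arise. The set was chosen by symbol and holds 10 of the 27998 genes in the matrix. It has 4 ligands (Efnb1, Efnb2, Efna1 and Efna5) and 6 receptors (Ephb2, Ephb3, Ephb4, Epha3, Epha4 and Epha7), and all 10 symbols matched a gene. The other 12 Eph and ephrin genes of the matrix are used only for comparison.

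RNA of single cells was counted in droplets for 3 sorted populations, with 1 sample each, from pooled embryos of E10.5 with 28 to 32 somite pairs. The T1-preHSC gate (precursors of haematopoietic stem cells) took Ter119-CD31+VCad+CD41lowcKit+ cells. The endothelial gate took Ter119-CD31+VCad+CD41-cKit+ cells, and the AGM niche gate took live Ter119- cells. Strain and genotype are not given in the sources used here, and the labels name no treatment. The deposited counts form 1 pooled matrix whose barcodes carry 8 suffixes, called libraries 1 to 8, and no label ties a library to a sort. The matrix was therefore treated as 1 sample, and no p-value or standard error was computed.

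Ephrins are membrane-bound ligands, and Eph receptors are receptor tyrosine kinases on the neighbouring cell, so the pair signals where cells touch. A-type ephrins are held by a lipid anchor and mostly bind EphA receptors, whereas B-type ephrins span the membrane and mostly bind EphB receptors, and signals can run in both directions. Ephrin-B2 on arteries and EphB4 on veins are classical marks of vessel identity, and EphA receptors guide motor axons and help to set boundaries in somites and the hindbrain.

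Cells were put into classes by marker genes that contain no Eph or ephrin gene. Of 9492 barcodes, 8915 were used, 1940 of them endothelial-like and 3794 mesenchymal-, somite- or neural-like. The classes lie in different libraries: 1842 of the 1940 endothelial-like cells came from libraries 5 and 6, 3753 of the 3794 mesenchymal-, somite- and neural-like cells from libraries 1 to 4, and 95 of the 131 pre-HSC-like cells from libraries 7 and 8. Library medians ran between 6548 and 15593 UMIs (unique molecular identifiers, each counted as 1 molecule) per barcode, libraries held 104 to 1841 barcodes, and 54 barcode sequences occurred in more than 1 library. Arterial-like cells had 842 CPM (counts of a gene for each 1000000 UMIs of the class) summed over 9 arterial markers and 446 CPM over 8 venous markers, and venous-like cells had 1113 CPM of the venous markers. Pre-HSC-like cells had all 13 blood markers detected at a summed 1497 CPM, and 12 of 12 endothelial markers at a summed 1489 CPM.

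Promoters are shown first for Efnb2, Ephb4 and Efna1, the 3 members with the largest log2 ratios, in size, between arterial-like and venous-like cells. Each window runs over 300 bases, 250 before and 50 after a start in RefSeq on GRCm38.p6, the assembly behind the mm10 build of the submitters' processing notes, and is read 5′ to 3′ on the strand of the gene. Efna1 has 2 starts in RefSeq. Capitals mark matches on either strand to any of 5 motifs, and no match in these windows overlaps another. The motifs were TATAAA for the box near many starts, then CCAAT for the box of that name, and GGGCGG for the GC box. The core TGGGAA is bound by the Notch effector RBPJ, and the core ACAAT is bound by SOX factors.
Efnb2, chr8:8661193-8661492, minus strand: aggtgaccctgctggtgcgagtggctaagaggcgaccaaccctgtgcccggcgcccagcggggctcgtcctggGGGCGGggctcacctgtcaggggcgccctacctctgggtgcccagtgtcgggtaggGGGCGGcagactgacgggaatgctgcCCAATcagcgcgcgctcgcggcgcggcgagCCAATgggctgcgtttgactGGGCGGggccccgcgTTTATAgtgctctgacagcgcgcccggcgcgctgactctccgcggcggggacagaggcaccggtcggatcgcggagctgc
Ephb4, chr5:137349859-137350158, plus strand: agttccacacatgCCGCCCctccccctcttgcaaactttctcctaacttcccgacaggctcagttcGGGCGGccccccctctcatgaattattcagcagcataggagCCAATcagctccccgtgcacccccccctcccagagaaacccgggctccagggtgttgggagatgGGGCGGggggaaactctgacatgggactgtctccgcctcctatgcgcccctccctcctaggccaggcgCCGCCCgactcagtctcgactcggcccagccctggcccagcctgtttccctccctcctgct
Efna1, chr3:89280902-89281201, minus strand: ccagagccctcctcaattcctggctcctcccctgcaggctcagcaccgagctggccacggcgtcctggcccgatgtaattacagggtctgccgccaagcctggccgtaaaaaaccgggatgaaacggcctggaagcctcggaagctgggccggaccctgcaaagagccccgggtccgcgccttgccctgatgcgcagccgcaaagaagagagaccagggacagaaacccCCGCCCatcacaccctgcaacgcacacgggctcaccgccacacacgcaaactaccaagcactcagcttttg
Efna1, chr3:89279596-89279895, minus strand: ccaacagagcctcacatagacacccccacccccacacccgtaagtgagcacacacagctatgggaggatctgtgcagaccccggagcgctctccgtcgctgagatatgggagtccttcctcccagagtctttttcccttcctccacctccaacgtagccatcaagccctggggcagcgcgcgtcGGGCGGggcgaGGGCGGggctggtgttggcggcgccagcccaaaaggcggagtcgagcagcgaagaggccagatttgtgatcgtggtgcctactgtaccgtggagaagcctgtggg
The Efnb2 window holds CCAAT at 2 positions, GGGCGG at 3 and TATAAA at 1, and the Ephb4 window holds CCAAT at 1 position and GGGCGG at 4. Both Efna1 windows hold only GGGCGG among the 5 motifs, at 1 and 2 positions. Neither TGGGAA nor ACAAT is in any of the 4 windows. Among all 32851 promoter windows of the table, 37.4% hold CCAAT, 35.7% GGGCGG, 13.6% TATAAA, 25.6% TGGGAA and 31.0% ACAAT. All 10 members had a window there.

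Each member's level is a sum of UMIs over the cells of a class, as CPM with an exact Poisson 95% interval that covers counting error only. These are counts of transcript 3′ ends, so levels are compared between classes within a gene and not between genes. Among the 16 classes with at least 50 cells, Efnb2 and Efna1 were highest in arterial-like cells and Ephb4 in venous-like cells, with intervals that did not overlap that of any other class. Epha3 was likewise apart from all others in mesenchymal-like cells. For the other 6 members the highest class overlapped its nearest neighbour. Macrophage-like cells were at 0 counts for 7 of the 10 members, where the exact interval reaches up to 6.43 CPM each.

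**Figure D1:**
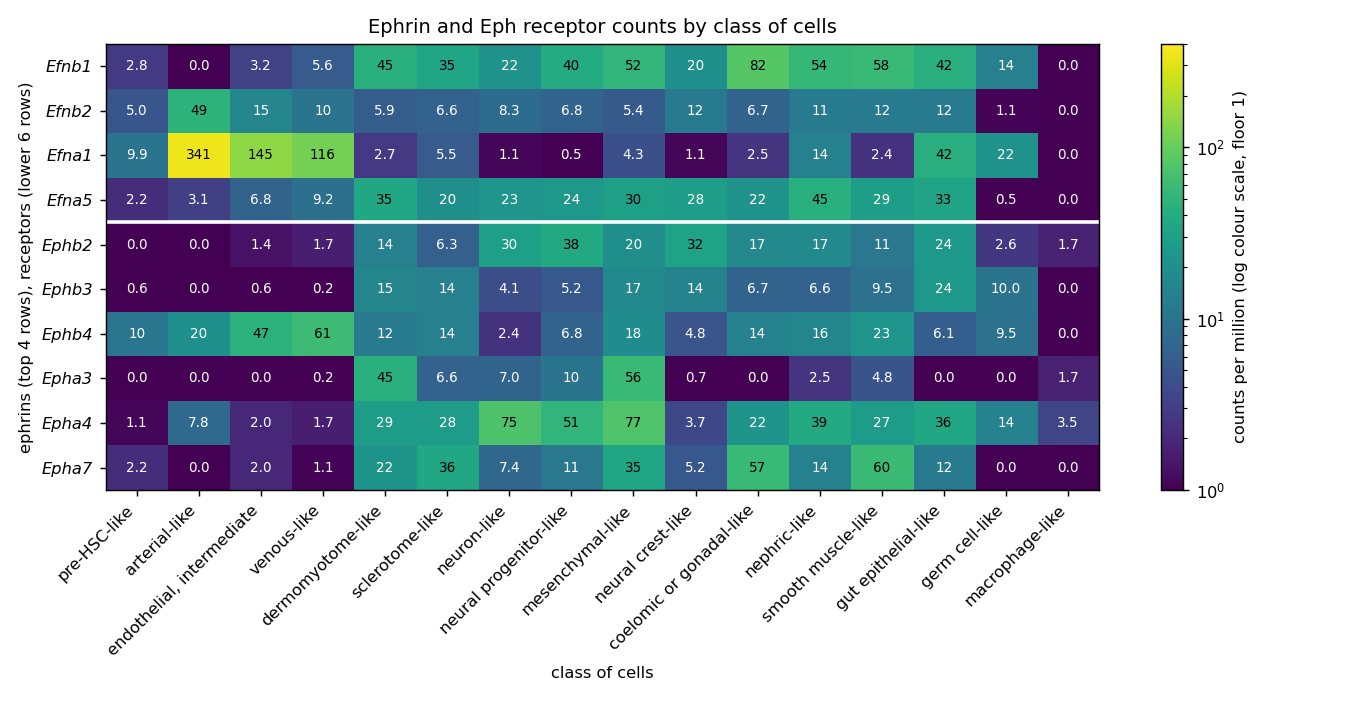
Levels (CPM) of each member (rows) in the 16 classes with at least 50 cells (columns), on a log colour scale, with the value printed in each cell. Efna1 reaches 341 CPM in arterial-like cells, and the receptors other than Ephb4 stay at or below 7.82 CPM in all 3 endothelial classes.

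Within the endothelium, Efna1 and Efnb2 were higher in arterial-like cells and Ephb4 in venous-like cells, and each was found in both classes. Efna1, an A-type ephrin of vessel walls, was higher in arterial-like cells at 341 CPM (297 to 390, 85 cells), against 116 CPM (108 to 123, 1050 cells) in venous-like cells. Ephb4, the receptor for ephrin-B2, was lower in arterial-like cells at 20.3 CPM (10.8 to 34.8), against 61.1 CPM (55.99 to 66.7) in venous-like cells. Efnb2, its ligand, had 48.5 CPM (33.0 to 68.8) in arterial-like cells and 10.1 CPM (8.03 to 12.4) in venous-like cells.

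Library by library, Efna1 had 293 CPM in library 5 and 378 CPM in library 6 in arterial-like cells, against 116 CPM in each of these libraries in venous-like cells. Both arterial-like values lay above the venous-like value of 84.8 CPM in library 1 as well, the third library with at least 20 venous-like cells. Efnb2 had 56.5 and 37.8 CPM in arterial-like cells of libraries 5 and 6, against 12.4 and 8.84 CPM in venous-like cells of the same libraries, and 0 counts in the 21 venous-like cells of library 1. The arterial-like and venous-like values of Efna1 and Efnb2 did not overlap between libraries. Ephb4 had 7.06 and 34.7 CPM in arterial-like cells of libraries 5 and 6, from 2 and 11 counts, against 59.9 and 61.5 CPM in venous-like cells of these libraries and 78.8 CPM in library 1. All venous-like values of Ephb4 thus lay above both arterial-like ones, which differ from each other more than the venous-like ones do.

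A gene was called where the log2 ratio of (CPM + 10) reached 1 in size, the higher class had at least 50 CPM, and no library holding 20 or more cells of each class went the other way. By this rule 2 of the 10 members were called between arterial-like and venous-like cells, Efna1 higher (log2 ratio 1.48) and Ephb4 lower (-1.23). Only these 2 members reached 50 CPM in either class. Over all genes the same rule called 3.41% of 3170, 2.87% higher and 0.536% lower. Efnb2 had a log2 ratio of 1.54 and missed the call only by its level of 48.5 CPM. Without the minimum level 3 members were called, against 2.9% of the 7733 genes at 10 CPM or more. The members' median log2 ratio was -0.09, beside 0.05 over those genes. Only Efna1, Efnb2 and Ephb4 reached 10 CPM in either class. Here and below, member medians are over all 10 members at any level, and gene medians over genes at 10 CPM or more.

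The call for Ephb4 rests on library 5: without that library the log2 ratio was -0.82, with 43 arterial-like cells left, and it was -2.13 without library 6. With cells thinned to 4000 UMIs the Ephb4 ratio was -0.85, also short of a call, and with 50 CPM added in place of 10 only Efna1 was called. When clusters were used in place of marker counts, with 165 arterial-like and 1773 venous-like cells, the log2 ratios were 0.81 for Efna1, 0.79 for Efnb2 and -0.45 for Ephb4, with no call. Arterial-like cells also carried transcripts from the marker lists of other cell types, though few genes made up most of them. Of the 7 smooth muscle markers 6 had counts, with a summed 336 CPM. Acta2 alone stood at 238 CPM, against 0.355 CPM in venous-like cells, while Myh11, Cnn1 and Actg2 had 1 count each and Rgs5 had 0. Of the 13 neuron markers 4 had counts, with Stmn2 at 207 CPM, against 72.6 CPM of Stmn2 in venous-like cells. Isl1 had 5 counts, Elavl4 and Stmn3 had 1 each, and Tubb3, Elavl3 and Dcx had 0. In venous-like cells 6 of the smooth muscle markers and 7 of the neuron markers had counts, at a summed 10.4 and 77.2 CPM. The part of these transcripts in the results was not tested.

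**Figure D2:**
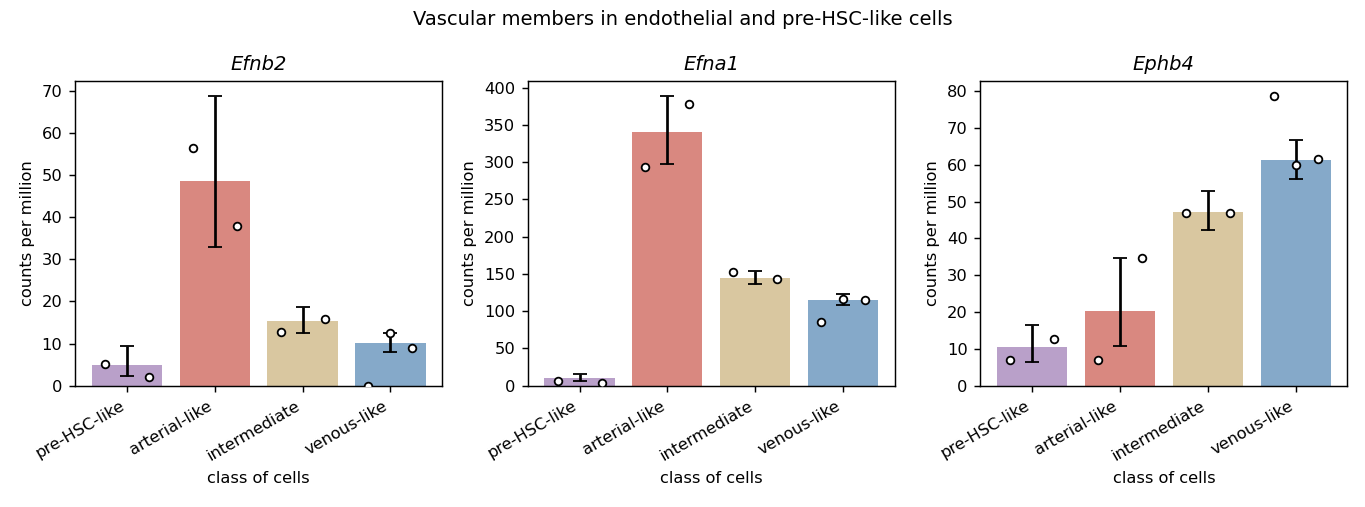
Levels (CPM) of Efnb2, Efna1 and Ephb4 in pre-HSC-like, arterial-like, intermediate and venous-like cells. Bars are pooled values with exact Poisson 95% intervals, and open circles are single libraries with at least 20 cells of the class. Efnb2 and Efna1 peak in arterial-like cells, and Ephb4 is highest in venous-like cells at 61.1 CPM.

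The levels also followed the number of arterial markers across the endothelium. In endothelial-like cells with 0, 1, 2, 3 and 4 or more of the 9 arterial markers detected, Efnb2 stood at 10.1, 13.9, 28.4, 40.0 and 71.4 CPM. Efna1 stood at 119, 144, 181, 296 and 357 CPM in the same cells. Ephb4 had 59.3, 48.2, 34.8, 26.6 and 40.8 CPM, the last from 8 counts in 24 cells with an interval of 17.6 to 80.4 CPM. Both ligands were therefore highest where most arterial markers were found, and Ephb4 was highest where none was. The median depth of these cells was 7286, 8110, 8671, 8217.5 and 7532 UMIs.

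**Figure D3:**
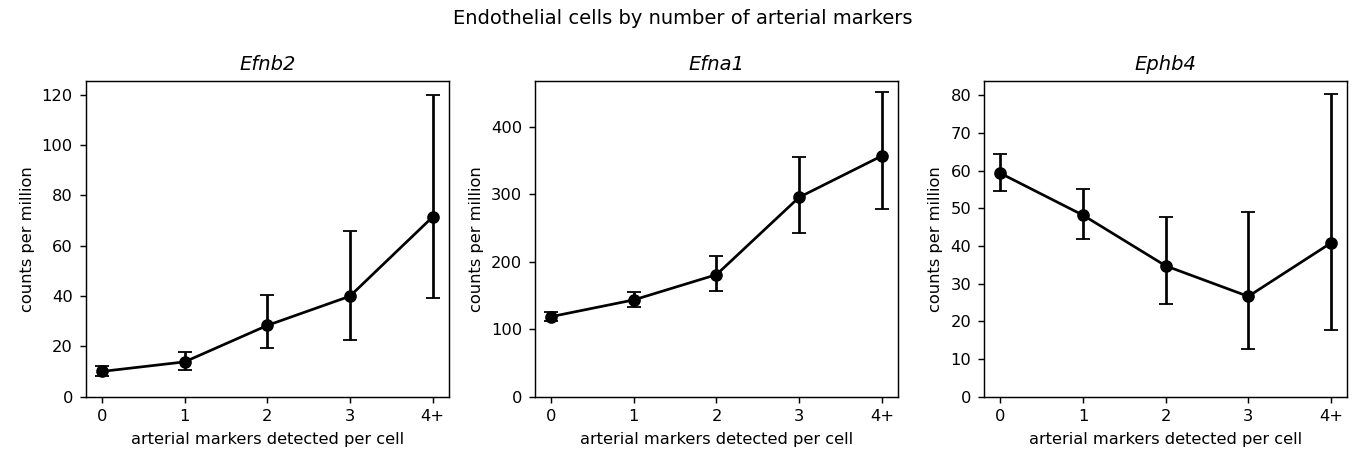
Levels (CPM) of Efnb2, Efna1 and Ephb4 in endothelial-like cells by the number of arterial markers detected per cell, with exact Poisson 95% intervals. Efnb2 reaches 71.4 CPM and Efna1 357 CPM in cells with 4 or more markers, and Ephb4 is at 59.3 CPM in cells with none.

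In both libraries rich in endothelium the ligands were highest in cells with 3 or more arterial markers. In library 5, Efnb2 had 11.9, 11.6, 31.2 and 76.0 CPM in cells with 0, 1, 2 and 3 or more arterial markers, and in library 6 it had 9.04, 14.8, 23.7 and 36.7 CPM. For Efna1 these steps gave 121, 151, 224 and 304 CPM in library 5, and 118, 144, 167 and 331 CPM in library 6. Ephb4 had 59.7, 43.3, 18.7 and 17.5 CPM at the same steps in library 5, and 58.3, 51.2, 42.6 and 36.7 CPM in library 6. Ephb4 was lower in library 5 than in library 6 at both upper steps, with intervals that overlap.

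Single arterial markers differed in how closely Efnb2 went with them. Endothelial-like cells with a UMI of Hey1, a Notch target, had 46.6 CPM of Efnb2, against 11.8 CPM in cells without one. For Gja4, a gap junction gene of arteries, the values were 39.0 CPM with and 12.4 CPM without, and for Dll4, a Notch ligand, 38.2 CPM with and 12.02 CPM without. Cells with and without Sox17, an endothelial transcription factor gene, had 14.8 and 13.7 CPM of Efnb2, with intervals that overlap. The same held for Jag1, another Notch ligand, with 12.8 CPM with and 13.9 CPM without. On the venous side, Ephb4 had 77.3 CPM with and 51.5 CPM without Lyve1, a hyaluronan receptor gene, and 61.6 CPM with and 47.5 CPM without Dab2. Lyve1 and Dab2 were picked from the 8 venous markers after their values were seen, and the others are not given here.

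Efnb2 and Ephb4 were also looked at within single endothelial-like cells. With each cell thinned to 4000 UMIs, Ephb4 was detected in 18.7% of the 91 Efnb2-positive endothelial-like cells and in 19.2% of the Efnb2-negative ones. Efna1 was detected in 44.0% of the Efnb2-positive cells and in 37.7% of the Efnb2-negative ones. Only 17 thinned endothelial-like cells held both Efnb2 and Ephb4. The classes went different ways. Efna1 was in 73.3% of 15 Efnb2-positive and 66.7% of Efnb2-negative arterial-like cells, but in 22.2% of 36 and 33.4% in venous-like cells. For Ephb4 these shares were 6.67% and 11.7% in arterial-like cells, and 30.6% and 21.9% in venous-like cells.

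Pre-HSC-like cells, which carry both endothelial and blood markers, had little of any member. Efna1 was lower in pre-HSC-like cells at 9.93 CPM (5.89 to 15.7, 131 cells), against 341 CPM in arterial-like cells, a log2 ratio of -4.14. Efnb2 had 4.97 CPM (2.27 to 9.43) in pre-HSC-like cells and 48.5 CPM in arterial-like cells, and Ephb4 had 10.48 CPM (6.31 to 16.4) in pre-HSC-like cells and 20.3 CPM (10.8 to 34.8) in arterial-like cells. Ephb2 and Epha3 were at 0 counts in both classes. Markers of other cell types differed as well: pre-HSC-like cells had a summed 141 CPM of myeloid progenitor markers (3 of 5 with counts, Elane and Ctsg at 0), against 0 CPM in arterial-like cells. Megakaryocyte markers summed to 41.9 CPM (5 of 7) in pre-HSC-like cells and 1.56 CPM (1 of 7) in arterial-like cells, and smooth muscle markers to 179 CPM (5 of 7) in pre-HSC-like and 336 CPM (6 of 7) in arterial-like cells. Their part in the member levels was not tested. By the call rule 1 of the 10 members was lower and none higher. This was Efna1, the only member that reached 50 CPM in either class. Of the 3378 genes that reached it, 21.8% were called, 15.4% lower and 6.45% higher. The median log2 ratio over all 10 members was -0.05, beside -0.05 over all genes at 10 CPM or more. Only Efna1, Efnb2 and Ephb4 reached 10 CPM in either class, so these medians cover unlike levels.

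In no single library were there 20 cells of each class, so the library and the class cannot be told apart in this comparison and no direction could be checked. The pre-HSC-like cells of libraries 7 and 8 had 5.24 CPM of Efna1 (2.26 to 10.3, 95 cells), and those of libraries 5 and 6 had 40.6 CPM (19.5 to 74.7, 32 cells), against 338 CPM in the 80 arterial-like cells of libraries 5 and 6. Within libraries 5 and 6 the log2 ratio of pre-HSC-like over arterial-like cells was -2.78 for Efna1 and -1.11 for Efnb2. For Ephb4 the ratio over all libraries was -0.57, and without library 6 it was 0.31.

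Germ cell-like cells give a level of Efna1 counts in cells outside the vessel wall. In libraries 5 and 6 they had 23.7 CPM of Efna1, against 138 CPM in endothelial-like cells, which is 17.2% of it, and 9.83 CPM of Ephb4, which is 18.4%. Efnb2 stood at 4.25% of the endothelial-like level, and the 12 endothelial markers together at 2.61%. Efna1 was detected in 16.3% of the 227 germ cell-like cells (median 8197 UMIs), in 10.7% of pre-HSC-like cells (median 13336 UMIs) and in 77.6% of arterial-like cells (median 6856 UMIs). The part of free RNA in these shares was not tested. The 40.6 CPM of Efna1 in pre-HSC-like cells of libraries 5 and 6 lay above the germ cell-like level of the same libraries, with an interval from 19.5 CPM that includes it.

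Set against the surrounding tissue, the endothelium had higher Efna1 and Ephb4 and lower Epha4. Endothelial-like cells had 137 CPM of Efna1, against 2.81 CPM in mesenchymal-, somite- and neural-like cells (log2 ratio 3.52), and 53.6 CPM of Ephb4, against 11.7 CPM (1.55). Epha4, a receptor for both ephrin types, had 2.03 CPM in endothelial-like cells, against 57.1 CPM in the other cells (-2.48). These 3 of 10 members were called, 2 higher and 1 lower, and only these 3 reached 50 CPM in either class. Of the 3260 genes that reached it, 16.0% were called, 10.1% higher and 5.92% lower. With 50 CPM added in place of 10, Ephb4 was no longer called. Without the minimum level 9 members were called, against 14.4% of 8221 genes at 10 CPM or more, and 7 of the 9 were lower in endothelial-like cells. Those 7 were Efnb1, Efna5, Ephb2, Ephb3, Epha3, Epha4 and Epha7. The members' median log2 ratio was -1.29, beside -0.09 over those genes. Efnb2 had 13.8 CPM in endothelial-like cells and 6.34 CPM in the other cells and was not called. Only libraries 1 and 6 held 20 cells of both kinds, so this comparison is largely one between libraries.

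Efnb1, a B-type ephrin of the embryonic mesenchyme and neural crest, was found in all 10 classes of the tissue around the vessels. It was highest in coelomic or gonadal-like cells at 82.4 CPM (67.0 to 100, 159 cells), where single libraries had 61.3, 86.3, 84.8 and 86.1 CPM. Smooth muscle-like cells followed at 58.5 CPM, nephric-like cells at 54.1 CPM and mesenchymal-like cells at 52.1 CPM, and the first 2 of these overlapped the highest class. Gut epithelial-like cells overlapped it as well, at 42.4 CPM (23.2 to 71.1) from 14 counts. Neural crest-like cells had the lowest value of the 10 classes, 20.4 CPM (15.3 to 26.5). Neuron-like cells had 21.9 CPM, against 39.9 CPM in neural progenitor-like cells, a log2 ratio of -0.64 that was not called. In dermomyotome-like cells Efnb1 had 69.3 CPM with and 40.3 CPM without a UMI of Pax7, a transcription factor gene of muscle progenitors.

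Efna5, an A-type ephrin known for repelling axons, was spread over many classes. Nephric-like cells had 45.1 CPM (34.0 to 58.7, 139 cells), dermomyotome-like cells 35.2 CPM and mesenchymal-like cells 30.01 CPM, against 3.13 CPM in arterial-like and 2.21 CPM in pre-HSC-like cells. Within the classes it went with some lineage genes, picked after their values were seen. Dermomyotome-like cells with a UMI of Myod1, the myogenic regulator, had 66.4 CPM, against 30.3 CPM in those without. Mesenchymal-like cells with Foxf1, a gene of splanchnic mesoderm, had 63.8 CPM, against 27.8 CPM in those without, and the log2 ratio was above 0 in each of the 3 libraries with 20 cells of both.

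Among the EphB receptors, Ephb2, which guides axons, was highest in the neural classes. Neural progenitor-like cells had 38.2 CPM (33.5 to 43.3), neural crest-like cells 32.2 CPM and neuron-like cells 29.6 CPM, against 19.6 CPM in mesenchymal-like and 6.28 CPM in sclerotome-like cells. Gut epithelial-like cells had 24.2 CPM from 8 counts, and their interval (10.4 to 47.7) overlaps that of neural progenitor-like cells. Single libraries had 37.9, 34.5, 33.4 and 41.6 CPM in neural progenitor-like cells and 18.2, 17.96, 18.9 and 21.8 CPM in mesenchymal-like cells, without overlap. The pooled log2 ratio of neural-like over mesenchymal-like cells was 0.59 and was not called. Ephb3 was low everywhere: its highest value was 24.2 CPM in 54 gut epithelial-like cells, from 8 counts, and mesenchymal-like cells had 17.0 CPM.

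Epha4, which guides motor axons and patterns the limb, was highest in 2 classes. Mesenchymal-like cells had 77.3 CPM (72.0 to 82.8), with 78.4, 74.2, 77.0 and 79.1 CPM in libraries 1 to 4. Neuron-like cells had 75.2 CPM (67.5 to 83.5), with 76.9, 95.6, 78.6 and 58.1 CPM. Neural progenitor-like cells had 51.5 CPM, and neural crest-like cells only 3.70 CPM from 10 counts. The 2 highest classes overlapped, while neural crest-like cells lay below these 3 classes in each of libraries 1 to 4.

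Epha4 was lower in somite-like cells at 28.4 CPM, against 77.3 CPM in mesenchymal-like cells, a log2 ratio of -1.19. It was the only 1 of 10 members called in this comparison, with or without the minimum level. Only 3 members reached 50 CPM in either class. Of the 2882 genes that reached it, 2.29% were called, 0.902% lower and 1.39% higher. Without the minimum level 2.45% of 7635 genes at 10 CPM or more were called. With 50 CPM added in place of 10, 0 members were called. The members' median log2 ratio was -0.27, beside -0.02 over all genes at 10 CPM or more. Neural-like cells had 61.5 CPM of Epha4, against 77.3 CPM in mesenchymal-like cells, which was not called. Neuron-like over neural progenitor-like cells gave a log2 ratio of 0.47 for Epha4. Epha4 was the only member at 50 CPM or more in either class, and 0 of the 10 members were called. Of the 3311 genes at that level, 15.2% were called, 8.15% higher and 7.04% lower. Without the minimum level 0 members were called as well, against 11.5% of 8029 genes. Over the 10 members the median log2 ratio was -0.18, beside 0.03 over those genes.

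Within the neural classes Epha4 differed between cells with and without some marker genes. The markers given were picked from 13 neuron and 15 neural progenitor markers after their values were seen, and the others are not given here. Neuron-like cells with a UMI of Mnx1, a transcription factor gene of motor neurons, had 128 CPM, against 60.2 CPM in neuron-like cells without one, and the log2 ratio was above 0 in 4 of 4 libraries (0.50 to 1.36). Those with Isl1, also a motor and sensory neuron gene, had 86.6 CPM, against 45.8 CPM without. Those with Dcx, a microtubule gene of young neurons, had 52.8 CPM, against 100.2 CPM without. Neural progenitor-like cells with Olig2, a gene of the motor neuron progenitor domain, had 113 CPM, against 45.7 CPM without, but only 1 library held 20 cells of both. With Msx3, a gene of the dorsal neural tube, they had 23.0 CPM, against 60.2 CPM without, lower in 4 of 4 libraries. Of all genes at 50 CPM or more, 1.55% had a log2 ratio of at least 1 in size between progenitor-like cells with and without Olig2, and 1.47% for Msx3. Between neuron-like cells with and without Mnx1 this share was 1.27%, and Epha4, at a log2 ratio of 0.98, was not among these genes.

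Epha3, an ephrin-A5 receptor of embryonic mesoderm, was highest in mesenchymal-like and dermomyotome-like cells. Mesenchymal-like cells had 56.4 CPM (52.0 to 61.2), with 64.8, 57.1, 49.3 and 54.4 CPM in libraries 1 to 4, and dermomyotome-like cells had 45.03 CPM (39.9 to 50.6). Sclerotome-like cells had 6.65 CPM from 18 counts. The ratio of dermomyotome-like over sclerotome-like cells was 1.73 on the log2 scale, with 47.3, 43.6, 43.8 and 45.8 CPM by library in dermomyotome-like cells and 5.50, 7.80, 12.7 and 2.39 CPM in sclerotome-like cells. These groups did not overlap, but 0 of the 10 members reached 50 CPM in either class, so none could be called. Of the 2942 genes that reached it, 3.5% were called, 2.21% higher and 1.29% lower. Without the minimum level Epha3 was the only member called, against 3.36% of 7585 genes. Over all 10 members the median log2 ratio was 0.07, beside -0.06 over those genes. The 2 classes share markers: sclerotome-like cells held a summed 493 CPM of dermomyotome markers (6 of 9 detected), beside 482 CPM of the 6 sclerotome markers. Dermomyotome-like cells held 1398 CPM of dermomyotome markers, with Myog at 639 CPM and Pax3 at 230 CPM, and 51.4 CPM of sclerotome markers. The part of these transcripts in the Epha3 ratio was not tested.

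Neural-like cells had 8.80 CPM of Epha3, against 56.4 CPM in mesenchymal-like cells, a log2 ratio of -1.82. It was the only 1 of 10 members called between these classes, and only 3 members reached 50 CPM in either class. Of the 3150 genes that reached it, 9.3% were called, 3.68% lower and 5.62% higher. With 50 CPM added in place of 10, 0 members were called. Epha7, another EphA receptor, had 9.53 CPM in neural-like and 34.8 CPM in mesenchymal-like cells (-1.20) and was called only without the minimum level, where 9.38% of 8078 genes were called. The members' median log2 ratio was -0.49, beside 0.03 over those genes.

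The mesenchymal-like cells were mixed for Epha3. The markers given were picked from 14 mesenchymal markers after their values were seen, and the others are not given here. Those with a UMI of Wnt2, a secreted Wnt ligand gene, had 119 CPM (489 cells), against 22.1 CPM in those without (838 cells), and the log2 ratio of 2.01 lay between 1.65 and 2.38 in the 4 libraries. Those with Foxf1 had 3.19 CPM (96 cells), against 59.9 CPM without. Those with Hand2, a gene of limb and heart mesenchyme, had 86.4 CPM, against 49.1 CPM without, and those with Lum, a matrix proteoglycan gene, had 22.9 CPM, against 61.1 CPM without. Epha3 was thus high in the Wnt2-positive and low in the Foxf1-positive mesenchyme. The median depth was 7206 UMIs with and 7472 UMIs without Wnt2, and 6005 UMIs with and 7502 UMIs without Foxf1. Of all genes at 50 CPM or more, 1.59% were at least 1 log2 unit apart by Wnt2 and 2.54% by Foxf1. In dermomyotome-like cells Epha3 had 13.7 CPM with and 51.7 CPM without Pax7, where 1.58% of all genes at 50 CPM or more were at least 1 log2 unit apart.

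**Figure D4:**
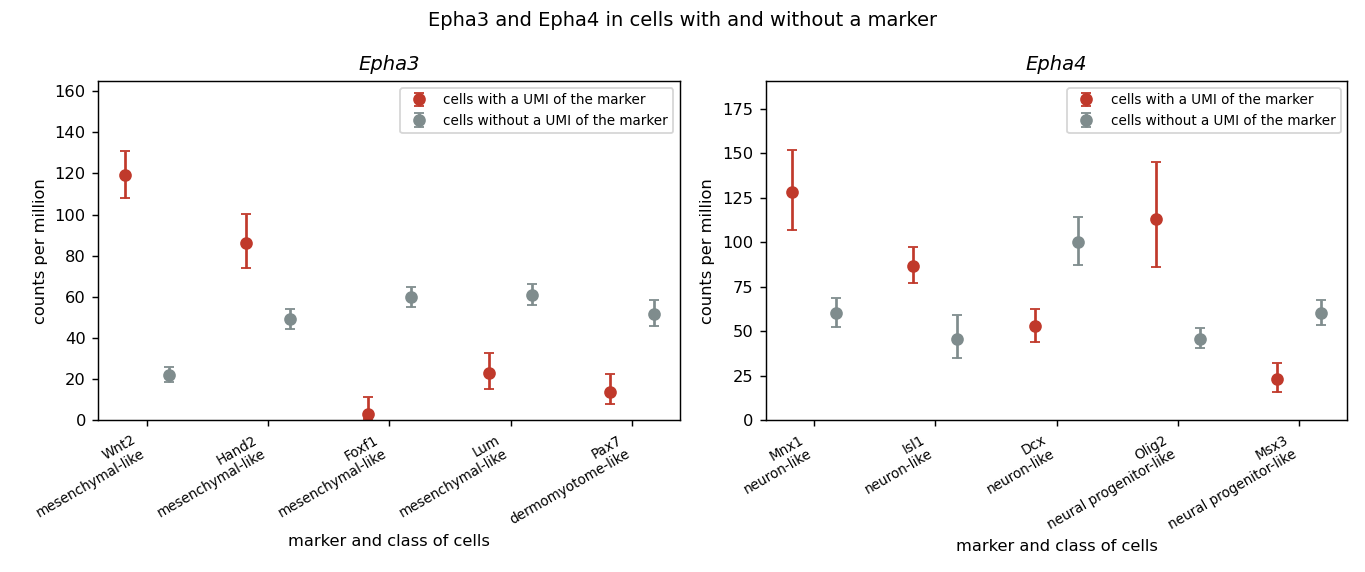
Levels (CPM) of Epha3 (left) and Epha4 (right) in cells with (red) and without (grey) a UMI of a marker gene, for the class named under each marker, with exact Poisson 95% intervals. Epha3 is at 119 CPM in mesenchymal-like cells with Wnt2 and 3.19 CPM in those with Foxf1, and Epha4 is at 128 CPM in neuron-like cells with Mnx1.

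Epha7, which acts in boundary formation and neural patterning, was highest in the smooth muscle-like and coelomic or gonadal-like classes. Smooth muscle-like cells had 59.7 CPM (44.3 to 78.7, 115 cells) and coelomic or gonadal-like cells 56.6 CPM (44.0 to 71.8, 159 cells), and these intervals overlap. Sclerotome-like cells had 36.2 CPM and mesenchymal-like cells 34.8 CPM. In coelomic or gonadal-like cells library 1 had 22.3 CPM, below the 58.3, 59.4 and 70.7 CPM of libraries 2 to 4. The smooth muscle-like class also held a summed 808 CPM of 7 detected dermomyotome markers out of 9, against 1398 CPM in dermomyotome-like cells. Myog, a skeletal muscle regulator on that list, had 754 CPM in smooth muscle-like cells and 639 CPM in dermomyotome-like cells. The part of these transcripts in its Epha7 level was not tested.

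Of the other 12 Eph and ephrin genes, only Efna4, an A-type ephrin, reached 50 CPM in a class of at least 50 cells. It did so in 7 classes, led by gut epithelial-like cells at 99.8 CPM and nephric-like cells at 91.0 CPM. It was lower in endothelial-like cells at 19.4 CPM, against 56.7 CPM in the mesenchymal-, somite- and neural-like cells (log2 ratio -1.18), and lower in neural-like cells at 29.9 CPM, against 79.0 CPM in mesenchymal-like cells (-1.16).

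A list of 30 genes that act downstream of or beside Eph receptors was set beside the members. Between arterial-like and venous-like cells 1 of the 8 that reached 50 CPM was called, where 2.87% of all genes were called higher. This was Rgs3, a G-protein regulator that binds ephrin-B, higher at 116 CPM in arterial-like cells, against 52.9 CPM in venous-like cells. Its log2 ratio lies at the threshold of 1, and scaling by trimmed means moves all ratios of this comparison by -0.20. Between endothelial-like cells and the surrounding tissue 2 of 7 were called higher, where 10.1% of all genes were, Rgs3 at 57.3 CPM in endothelial-like cells, against 16.2 CPM in the surrounding tissue, and Arhgef15, of the ephexin family, at 80.0 CPM, against 0.826 CPM. In pre-HSC-like cells 5 of 9 were lower than in arterial-like cells, where 15.4% of all genes were lower and no library could be checked for direction. Arhgef15 had 3.31 CPM in pre-HSC-like and 59.5 CPM in arterial-like cells, and Rgs3 had 16.0 CPM in pre-HSC-like and 116 CPM in arterial-like cells. Also lower were Fyn and Yes1, both Src-family kinase genes, at 21.5 and 19.3 CPM in pre-HSC-like cells, against 73.5 and 61.0 CPM in arterial-like cells, and Ptpn1, a tyrosine phosphatase gene. The median of the 9 was -1.07, beside -0.13 over all genes tested. In neuron-like cells 2 of 4 were called higher, where 8.15% of all genes were, Kalrn at 54.1 CPM, against 8.71 CPM in neural progenitor-like cells, and Ptpn1 at 187 CPM, against 79.2 CPM. No gene of the list was called among the somite-like, mesenchymal-like and neural-like comparisons.

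The genes most like a member over the 16 classes were looked up among 4996 genes by Pearson's r of log2(CPM + 10), as a description. Efna1 was nearest to Cda (r = 0.94), Gchfr and Cd38, and Efnb2 to Tspan15 (0.89). Ephb4 was nearest to Bgn (0.86), Epha3 to Zfhx4 (0.76), Epha7 to Cxcl12 (0.95), Ephb2 to Crabp2 (0.97), Efnb1 to Rasl11a (0.95) and Efna5 to H2afy2 (0.93). Among the members, Efnb1 and Epha7 had r = 0.87, Efna5 and Ephb2 0.82, and Efnb2 and Ephb4 0.42, while Efna1 and Ephb2 had -0.57. The classes share libraries and differ in depth.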

How the data were processed

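Per the submitters' processing notes, Cell Ranger and mm10 were used. What the authors deposited is 1 pooled matrix of UMI counts, whole numbers with no scaling, plus gene and barcode names. A barcode stayed in if it had 1000 UMIs, 500 genes and no more than 10% of UMIs from mitochondrial genes (9383 of 9492). The 5% of each library most like simulated doublets were then removed (468).

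Cells were gated on the number of distinct markers detected. Endothelial-like cells had at least 6 of 12 endothelial markers and at most 2 blood markers. Among them, arterial-like cells had at least 2 arterial markers and as many as venous ones or more, and venous-like cells had 3 or more venous markers and no arterial one. Pre-HSC-like cells had Cdh5, Runx1 and at least 4 blood markers. The arterial gate left out 76 endothelial-like cells for 1 marker, and 38 of the 85 arterial-like cells had as many venous as arterial markers.

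Named were the members, other Eph and ephrin genes at 50 CPM or more, called pathway genes and the genes most like a member. Members and lists were chosen with earlier results of these data known, gate thresholds after member values had been seen, and the markers that divide a class, Epha2 and Epha5 after their values. The calls were tested on simulated data. Python 3.11.15, numpy 2.4.6, scipy 1.17.1, pandas 2.3.3, leidenalg 0.10.2 and, for scaling factors only, edgeR 4.0.16 were used. Intervals are exact at 95% and cover counting error only.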

Additional observations from a re-analysis of the deposited data

How the results depend on the processing

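Of the member log2 ratios recomputed under the alternatives, 19 gained and 8 lost a call, and none of those called changed direction. Another 65, not called in either setting, moved beyond their counting interval. The other 1198 kept their call or, if not called, stayed within that interval, but values of called ratios could still move. With 50 CPM added before the log, 1 member was called for arterial-like over venous-like, and 0 for somite-like and for neural-like over mesenchymal-like cells. Without the 50 CPM minimum, 2 were called for pre-HSC-like over arterial-like cells, 9 for endothelial-like cells over the surrounding tissue, 2 for neural-like over mesenchymal-like and 1 for dermomyotome-like over sclerotome-like cells. With 1 more marker per gate, or with cells thinned to 4000 UMIs, 2 were called for pre-HSC-like over arterial-like cells, and thinning kept the highest class of 5 of the 10 members. With Leiden clusters in place of gates, 0 were called for arterial-like over venous-like and 2 for somite-like over mesenchymal-like cells. In libraries 5 and 6 alone, an alternative chosen after seeing the data, 5 were called for endothelial-like cells over 40 cells of the surrounding tissue, the highest class was kept for 3 members, and 4 comparisons had too few cells to run.

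Leaving out 1 library at a time gave 1 to 3 called members for arterial-like over venous-like, 1 to 2 for pre-HSC-like over arterial-like, 3 in every case for endothelial-like cells over the surrounding tissue, 1 for somite-like and neural-like over mesenchymal-like, and 0 for the other 2 comparisons, and it kept the highest class of 7 to 10 members. Without library 5 or library 6 fewer than 50 arterial-like cells were left, so that class was outside the order. Scaling by trimmed means (TMM) moved all log2 ratios by -0.20 for arterial-like over venous-like and by 0.20 for endothelial-like cells over the surrounding tissue, and by less than 0.1 elsewhere, and changed no member's call. The cause of these changes was not tested. No paired analysis was possible because each population has 1 sample and no barcode is tied to a population. Arterial-like values rest on 13 to 218 counts for Ephb4, Efnb2 and Efna1, and a member under 3 counts there is below 4.69 CPM.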

Other observations

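Some Eph and ephrin genes outside the set had their highest levels in neural or vascular classes, all under 50 CPM. Epha5, an axon guidance receptor gene, had 17.2 CPM in neuron-like cells and 3.80 CPM in neural progenitor-like cells, with intervals that did not overlap. Epha2, an ephrin-A1 receptor gene, had 15.6 CPM in arterial-like and 14.4 CPM in intermediate endothelial-like cells, and 0.552 CPM in pre-HSC-like cells. In mesenchymal-like cells thinned to 4000 UMIs, Epha4 was detected in 28.7% of the 209 Epha3-positive cells and in 20.8% of the Epha3-negative ones.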
